A study of Mus musculus with 12 samples.

Results

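The neurotrophins and their receptors were followed in the visual thalamus of newborn mice with a conditional deletion of either Sox2 or Nr2f1 in the thalamus. The genes were 6 of the 24480 genes in each count table, chosen by symbol: the ligand genes Bdnf, Ntf3 and Ntf5 (neurotrophin 4/5), the receptor tyrosine kinase genes Ntrk2 (TrkB) and Ntrk3 (TrkC), and Ngfr, which encodes the p75 neurotrophin receptor. In the Sox2 mutants, Ntf3 stood at 254% and Ntrk3 at 162% of the control level, and both passed the edgeR test. In the Nr2f1 mutants, Ntrk2 stood at 72.9% of the control level and was the only one of the 5 tested to pass in edgeR, while DESeq2 also called Bdnf and Ntrk3, both higher. With 1 library left out, the Ntf3 call and the Ntrk2 call were each kept in 1 of 6 fits. None of the 5 passed the test of a difference between the mutants.

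Neurotrophins are secreted growth factors that support the survival of neurons, the growth of their axons and dendrites and the maturation of synapses. BDNF and neurotrophin 4/5 bind TrkB, neurotrophin 3 binds mainly TrkC, and the p75 receptor binds all of them and their uncleaved precursors. Both Trk genes produce full-length receptors with a kinase domain and truncated receptors without one, the truncated TrkB being abundant in astrocytes. In the visual system BDNF is carried along retinal axons to their targets, and TrkB signalling takes part in the maturation of synapses between them.

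The tissue was the dorsal lateral geniculate nucleus (dLGN), the thalamic relay of retinal input, taken at postnatal day 0 as 12 bulk RNA libraries in 4 groups of 3, each library from a pool of 3 animals. Sox2 mutants were Sox2flox/flox;Ror-alphaCre, and their controls Sox2flox/flox or Sox2flox/+ without Cre. Nr2f1 mutants were Nr2f1 flox/flox;Ror-alphaCre, and their controls are littermates without Cre in the study's methods, while their label names the Cre allele and the absence of Cre together. The Cre is placed in the Rora gene. The paper states that it deletes in postmitotic sensory thalamus cells, and at early stages in neither retina nor cortex. Whether glia, vessels and meninges of the dissected tissue keep the floxed gene was not measured. Libraries are named here by the number or letter in their column name, which could be matched to a group but not to a numbered sample.

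Totals ran from 39293465 to 50095344 counts. Sox2 stood at 361 to 382 CPM (the count of a gene relative to the effective size of its library, scaled by trimmed mean of M values) in its controls and 116 to 152 CPM in its mutants, and Nr2f1 at 311 to 380 CPM in its controls and 101 to 151 CPM in its mutants. Rora, which carries the Cre, fell by 1.96 on the log2 scale in the Sox2 mutants and stood at -0.25 in the Nr2f1 mutants (adjusted p = 0.204). All 10 thalamic neuron markers on the list used, Slc17a6 and Tcf7l2 among them, were measured in every group. Of these, 5 fell and 1 rose in the Sox2 mutants, where 5 of the 10 log2 fold changes were above 0. Slc17a6, the vesicular glutamate transporter gene of thalamic neurons, stood at -0.96 there. Gbx2, the 1 that rose, stood at 1.67 and Tcf7l2 at 0.12 (edgeR adjusted p = 0.452). In the Nr2f1 mutants 1 of the 10 fell and 3 rose. The edgeR quasi-likelihood test, with Benjamini-Hochberg adjusted p-values and a threshold of 0.01, called 8.08% of 15602 genes in the Sox2 line (3.9% higher and 4.19% lower in mutants) and 2.54% of 15600 in the Nr2f1 line (1.22% higher and 1.32% lower). Of the 6 genes, 5 passed the filter on low counts in each line, with 2 of 5 called in the Sox2 mutants, both higher, and 1 of 5 in the Nr2f1 mutants, lower. The 3 mutant libraries lay all above or all below the 3 controls for 2 of the 5 in the Sox2 line, against 37.9% of all tested genes, and for 3 of the 5 in the Nr2f1 line, against 28.6%.

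The 6 genes are spread over 5 chromosomes (GRCm38): Bdnf at chr2:109674700-109727007 on the plus strand, Ntf3 at chr6:126101412-126166910 on the minus strand, Ntf5 at chr7:45413695-45417179 on the plus strand, Ntrk2 at chr13:58806569-59133970 on the plus strand, Ntrk3 at chr7:78175959-78738012 on the minus strand and Ngfr at chr11:95568818-95587735 on the minus strand. Promoter windows of RefSeq (GRCm38.p6, 250 bases before to 50 after a start) were held for 4 of them, with 7 windows for Bdnf, 2 for Ntf3 and 1 each for Ntrk2 and Ngfr. They were searched on both strands for CATTGT and ACAAAG, core letters bound by SOX proteins, for AGGTCA, the half-site of nuclear receptors such as NR2F1, and for CACGTCA, a cAMP-response-like element known in the activity-dependent Bdnf promoter. The matches are shown because the deleted factors belong to families that bind such letters; capitals mark the match.
Bdnf, ACAAAG, chr2:109692253-109692282: gtgaaaacatctACAAAGcatgcaatgccc
Bdnf, CACGTCA, chr2:109692387-109692416: catatgacagctCACGTCAaggcagcgtgg
Bdnf, AGGTCA, chr2:109692965-109692994: cacactccggagAGGTCAgggcgcaaactc
Bdnf, CATTGT, chr2:109693046-109693075: tctgtgtagtttCATTGTgtgttcgctttt
Ntrk2, CATTGT, chr13:58806319-58806348: ctccagcgCATTGTcttgtggtgcgtggag
All are plus-strand sequences, the strand of both genes. The first pair of matches lies in one Bdnf window, at -171 and -37 from its start, and the next pair in another, at -50 and 31. The Ntrk2 match begins at -242. Of 32851 promoter windows of the same length, 12.569% held CATTGT, 18.712% ACAAAG, 16.255% AGGTCA and 2.012% CACGTCA, so the SOX and half-site letters are common in promoters. None of these letters was in the Ntf3 or Ngfr windows. The shares are per window, and the 7 Bdnf windows gave more room for a match than the 1 of Ngfr.

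In the control tissue Ntrk2 stood far above the other genes, and each receptor above each ligand. Divided by the length of the longest transcript, Ntrk2 had 51.3 ± 6.90 CPM per kilobase (SD, n = 3) in the Sox2 controls and 54.0 ± 3.50 in the Nr2f1 controls. Ngfr followed at 5.18 ± 1.67 and 3.95 ± 1.22 CPM per kilobase, and Ntrk3 at 1.68 ± 0.23 and 1.35 ± 0.085. Among the ligands the level per kilobase was highest for Ntf3, at 0.93 ± 0.30 and 1.03 ± 0.12, then Bdnf at 0.50 ± 0.042 and 0.33 ± 0.14, then Ntf5 at 0.076 ± 0.024 and 0.066 ± 0.039. The order was the same in both control groups and with the median transcript length, and no neighbours in it overlapped in their control libraries. With the shortest Ntrk3 transcript in place of the longest, Ntrk3 would stand above Ngfr, so their order depends on the length used. These counts are per gene and do not separate full-length from truncated Ntrk2 and Ntrk3 transcripts, whose lengths run from 3049 to 8744 and from 3977 to 19703 bases.

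**Figure D1:**
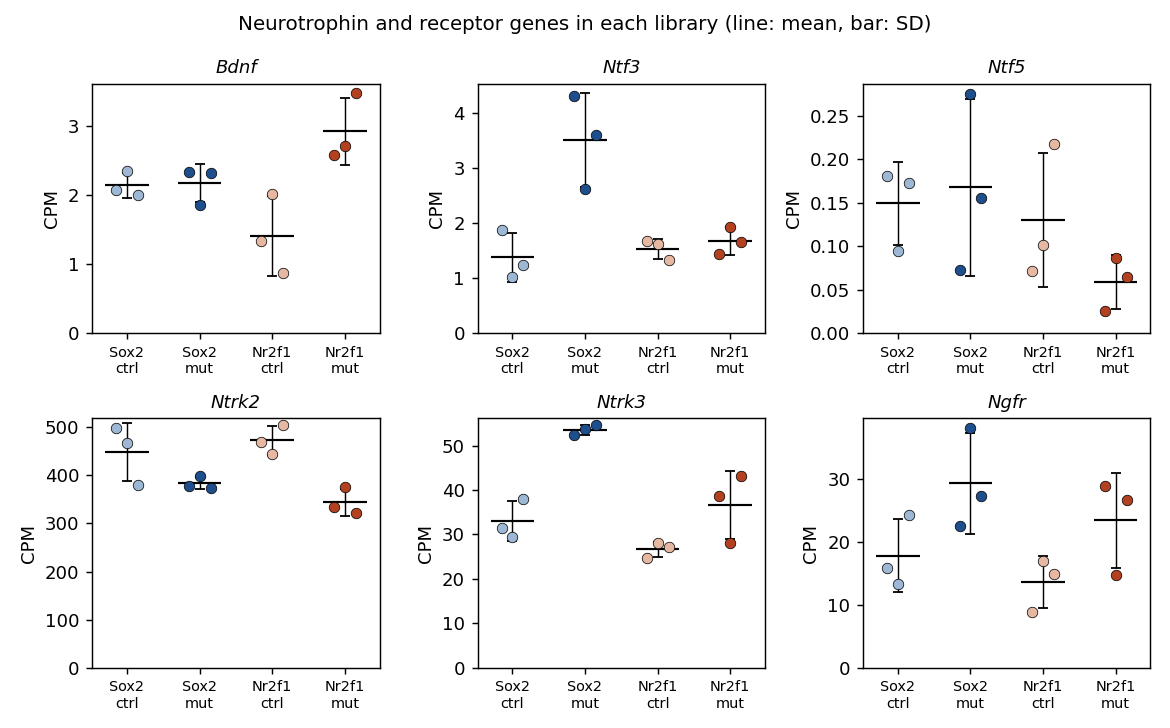
Level of each of the 6 genes in every library, in CPM on linear axes from 0, for the 4 groups of 3 libraries, with the mean as a line and the SD as a bar. Ntf3 and Ntrk3 are separated between Sox2 mutants and controls, Ntrk2, Bdnf and, narrowly, Ntrk3 between Nr2f1 mutants and controls, while Ntf5 stays below 0.275 CPM in every library.

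Ntf3, the TrkC ligand, was higher in the Sox2 mutants. It stood at 1.88, 1.02 and 1.23 CPM in control libraries 1, 2 and 3 and at 4.31, 2.61 and 3.59 CPM in mutant libraries 1, 3 and 4. All mutant libraries lay above all controls, on 43 to 177 counts per library. The log2 fold change was 1.34 (SE 0.28, 95% interval 0.72 to 1.96, edgeR adjusted p = 0.00953), just inside the threshold. It ran from 1.16 to 1.63 when 1 library was left out, and the call was kept only without mutant 3 (adjusted p = 0.00821), the others giving 0.0104 without control 1, 0.0448 without control 2, 0.0144 without control 3, 0.0288 without mutant 1 and 0.0398 without mutant 4. With the mean of the male-specific genes as a covariate it was 1.44 (adjusted p = 0.0210).

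Markers of pallial and hippocampal neurons, cells of the structures that lie over the dLGN, went with Ntf3 in some libraries but not in all. Their summed level was 63.0, 47.3 and 33.0 CPM in Sox2 controls 1, 2 and 3 and 169, 55.8 and 99.4 CPM in mutants 1, 3 and 4. Mutant 1 had both the highest sum and the highest Ntf3. Mutant 3 lay below control 1 for the sum but above it for Ntf3 (2.61 against 1.88 CPM). Control 3 had the lowest sum, but control 2 the lowest Ntf3. Of these 10 genes 2 rose in the Sox2 mutants, Bcl11b and Slc17a7, with a list median of 1.14 against 0.00050 over all genes. Emx1, a defining gene of the pallium, stood at 0.69 CPM in controls and 1.56 CPM in mutants, and none of the 10 was at 0 as a group mean. With the mean of the list as a covariate, an alternative chosen after seeing the data, the Ntf3 log2 fold change was 0.85 (edgeR adjusted p = 0.0589). The part of such cells in the Ntf3 values was not tested beyond this.

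In the Nr2f1 line Ntf3 stood at 1.67, 1.61 and 1.33 CPM in control libraries B, D and E and at 1.43, 1.93 and 1.66 CPM in mutant libraries A, B and C. The groups overlapped, and the log2 fold change was 0.13 (95% interval -0.36 to 0.61, edgeR adjusted p = 0.767). The pallial and hippocampal sum spanned 34.7 to 47.1 CPM in these controls and 36.8 to 52.4 CPM in these mutants, with 0 of 10 genes called by edgeR (1 at an unadjusted p below 0.05) and 0 by DESeq2. The change in Sox2 mutants exceeded that in Nr2f1 mutants by 1.22 (95% interval 0.46 to 1.98), which did not pass the interaction test over 12 libraries (adjusted p = 0.0840, where 1.44% of 15989 genes were called). Of the 5 genes 0 passed that test in edgeR, 2 had an unadjusted p below 0.05, Bdnf and Ntf3, and DESeq2 called 0. With the pallial covariate the Ntf3 difference was 0.75 (adjusted p = 0.266).

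Bdnf, the main TrkB ligand, did not pass in edgeR in either line. In the Sox2 line it stood at 2.08, 2.34 and 2.00 CPM in control libraries 1, 2 and 3 and at 2.34, 1.85 and 2.32 CPM in mutant libraries 1, 3 and 4, so that the groups overlapped. Its log2 fold change was 0.02 (95% interval -0.42 to 0.46, edgeR adjusted p = 0.953).

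In the Nr2f1 line Bdnf stood at 1.33, 2.02 and 0.87 CPM in controls B, D and E and at 2.59, 2.71 and 3.48 CPM in mutants A, B and C. Every mutant library was above every control, on 40 to 162 counts. The log2 fold change of 1.05 (SE 0.29, 95% interval 0.40 to 1.70) did not pass at edgeR's adjusted p = 0.0585, and DESeq2 gave 1.05 with an adjusted p of 0.00804. The difference between the mutants was -1.03 (95% interval -1.80 to -0.26, interaction adjusted p = 0.154).

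Neurotrophin 4/5, the other TrkB ligand, was close to the limit of detection. Ntf5 had 3 to 12 counts in the Sox2 line and 1 to 10 in the Nr2f1 line, or 19 and 22 in total over the Sox2 controls and mutants and 18 and 8 over the Nr2f1 controls and mutants. It did not pass the filter on low counts in either line. Without that filter its log2 fold changes were 0.17 (adjusted p = 0.892) and -1.09 (adjusted p = 0.510), and no difference was detectable at this depth.

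**Figure D2:**
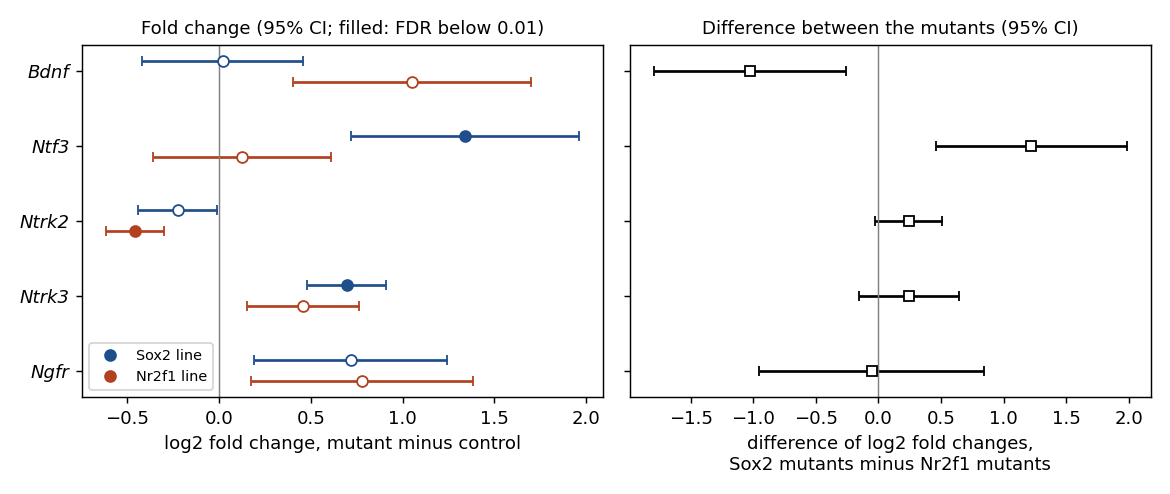
Left, log2 fold change (mutant minus control) of the 5 tested genes in each line with its 95% interval, filled where the adjusted p was below 0.01; right, the difference between those changes (Sox2 mutants minus Nr2f1 mutants). Ntf3 and Ntrk3 are filled in the Sox2 line and Ntrk2 in the Nr2f1 line, and none of the differences passed.

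Ntrk2, which encodes TrkB, fell in the Nr2f1 mutants. It stood at 469, 444 and 505 CPM in controls B, D and E and at 335, 376 and 322 CPM in mutants A, B and C, with no overlap. This was a log2 fold change of -0.46 (SE 0.07, 95% interval -0.62 to -0.30, edgeR adjusted p = 0.00525), on 13335 to 23210 counts per library. Leaving out 1 library moved it between -0.52 and -0.41. The call was kept only without mutant B (adjusted p = 0.00114), against 0.0250 without control B, 0.0125 without control D, 0.0204 without control E, 0.0347 without mutant A and 0.0162 without mutant C. Male-specific genes had a summed level of 43.6 to 97.4 CPM in these controls and 0 to 52.1 CPM in these mutants, and with their mean as a covariate Ntrk2 stood at -0.43 (adjusted p = 0.0747).

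In the Sox2 line Ntrk2 stood at 497, 467 and 381 CPM in controls 1, 2 and 3 and at 378, 398 and 375 CPM in mutants 1, 3 and 4. Control 3 lay within the mutants and the other controls above them. Its log2 fold change was -0.22 (95% interval -0.44 to -0.0077, edgeR adjusted p = 0.131), and without control 3 it was -0.32 (adjusted p = 0.00495). Without any other single library the edgeR adjusted p ran from 0.169 to 0.371. Leaving out control 3 also raised the calls over all genes from 1261 to 2161. The changes in the 2 mutants differed by 0.24 (95% interval -0.029 to 0.51, interaction adjusted p = 0.376), and by 0.14 without Sox2 control 3. Astrocytes also express Ntrk2, and of 10 astrocyte markers 6 rose in the Sox2 mutants (list median 0.61, summed level 1900 to 2278 CPM in controls and 2885 to 3342 CPM in mutants) and 1 in the Nr2f1 mutants (list median 0.26, 1641 to 1699 CPM and 1827 to 2010 CPM). The part of these cells in the Ntrk2 values was not tested. The 10 thalamic neuron markers summed to 2060 to 2582 CPM in the Sox2 controls and 1927 to 1989 CPM in the Sox2 mutants, and to 2458 to 2721 CPM and 2473 to 2839 CPM in the Nr2f1 line. The 8 markers of neurons of any kind summed to 6767 to 7893 CPM in Sox2 controls and 6614 to 7051 CPM in Sox2 mutants. In the Nr2f1 line they summed to 7791 to 8004 CPM in controls and 6929 to 7594 CPM in mutants, without overlap. In edgeR 1 of the 8 fell in the Sox2 mutants. In the Nr2f1 mutants 0 passed in edgeR (4 at an unadjusted p below 0.05), and DESeq2 called 2 lower. GABAergic neuron markers summed to 142 to 196 CPM and 225 to 279 CPM in the Sox2 line, where 1 of 10 passed in edgeR (7 in DESeq2), and to 165 to 183 CPM and 172 to 323 CPM in the Nr2f1 line, where 0 passed in edgeR (7 at an unadjusted p below 0.05) and 1 in DESeq2. The part of these neurons in the Ntrk2 and Ntrk3 values was not tested, and in bulk tissue fewer cells of a type and less RNA per cell cannot be told apart.

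Ntrk3, which encodes TrkC, rose in the Sox2 mutants. It stood at 31.5, 29.5 and 38.1 CPM in controls 1, 2 and 3 and at 52.3, 53.7 and 54.5 CPM in mutants 1, 3 and 4. The mutants lay close together and all above the controls. This gave a log2 fold change of 0.70 (SE 0.10, 95% interval 0.48 to 0.91, edgeR adjusted p = 0.00123), which stayed between 0.62 and 0.82 with 1 library left out, called in 5 of 6 such fits and at 0.0102 without control 1. With the fibroblast genes described below as a covariate it was 0.59 (adjusted p = 0.00336).

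In the Nr2f1 mutants Ntrk3 stood at 38.7, 28.1 and 43.1 CPM in libraries A, B and C, against 24.8, 28.1 and 27.1 CPM in controls B, D and E. Mutant B was barely above control D and the other mutants were clear of all controls. Here the log2 fold change was 0.46 (SE 0.14, 95% interval 0.15 to 0.76, edgeR adjusted p = 0.0740). It passed with DESeq2 (0.45, adjusted p = 0.00643) and with edgeR without mutant B (0.62, adjusted p = 0.00162), and with the fibroblast covariate it was 0.05 (adjusted p = 0.893). Without any other single library the edgeR adjusted p ran from 0.130 to 0.236. The changes in the 2 mutants differed by 0.24 (95% interval -0.16 to 0.65, interaction adjusted p = 0.600), which became 0.10 without Nr2f1 mutant B and 0.39 without Nr2f1 mutant C.

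Ngfr, the p75 receptor gene, is known in neurons but also in meningeal and perivascular cells. It stood at 15.9, 13.3 and 24.3 CPM in Sox2 controls 1, 2 and 3 and at 22.5, 38.2 and 27.3 CPM in mutants 1, 3 and 4. Mutant 1 lay below control 3, and the log2 fold change of 0.72 (SE 0.23) did not pass (edgeR adjusted p = 0.0586), though without control 3 it was 1.02 (adjusted p = 0.00621). Without any other single library the edgeR adjusted p ran from 0.0342 to 0.194, and DESeq2 on all libraries gave 0.130. In the Nr2f1 line Ngfr stood at 8.94, 17.0 and 14.9 CPM in controls B, D and E and at 29.0, 14.8 and 26.6 CPM in mutants A, B and C. Mutant B lay among the controls, and the log2 fold change was 0.78 (SE 0.27, edgeR adjusted p = 0.113).

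Ngfr broadly followed the summed level of 10 meningeal and perivascular fibroblast markers from library to library, though not in strict order. That sum was 973, 950 and 1902 CPM in Sox2 controls 1, 2 and 3 and 1456, 3307 and 1744 CPM in mutants 1, 3 and 4. In the Nr2f1 line it was 720, 1053 and 1100 CPM in controls B, D and E and 1992, 1047 and 2440 CPM in mutants A, B and C. Control 3 of the Sox2 line and mutant B of the Nr2f1 line, which went against their groups for Ngfr, did so for this sum as well. By edgeR 0 of the 10 markers passed in either line (5 and 8 at an unadjusted p below 0.05, and 0 by DESeq2), with list medians of 0.76 and 0.98, and Col1a1, Col1a2 and Col3a1 each averaged over 250 CPM in every group. With the mean of the list as a covariate, again chosen after seeing the data, the Ngfr log2 fold change was 0.21 in the Sox2 mutants (adjusted p = 0.237) and -0.06 in the Nr2f1 mutants (adjusted p = 0.921). That covariate also moved the Ntrk2 change in the Nr2f1 mutants to -0.34 (adjusted p = 0.130). The list median was above 0 in both mutants, so the covariate and the genotype cannot be told apart here. The part of such cells in the Ngfr values was not tested beyond this.

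**Figure D3:**
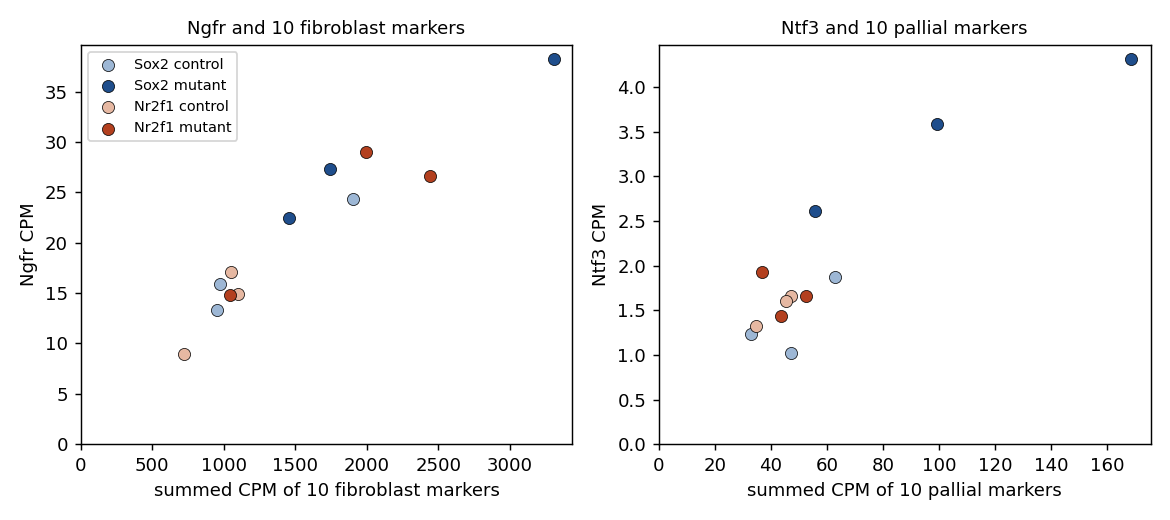
Each point is a library, coloured by group. Left, Ngfr level against the summed level of 10 meningeal and perivascular fibroblast markers; right, Ntf3 level against that of 10 pallial and hippocampal markers, all in CPM on linear axes. Sox2 mutant 3 is highest on both axes on the left (38.2 and 3307 CPM), and Sox2 mutant 1 is highest on both axes on the right (4.31 and 169 CPM).

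The ratio of Ntrk2 to Ntrk3 counts within a library does not depend on scaling between libraries. It averaged 13.9 ± 3.35 in Sox2 controls and 7.17 ± 0.28 in Sox2 mutants, and 17.8 ± 1.72 in Nr2f1 controls and 9.83 ± 3.13 in Nr2f1 mutants (SD, n = 3). Every mutant library had a lower ratio than every control of its line. The ratio of Ntf3 to Bdnf counts went opposite ways, from 0.65 ± 0.24 to 1.60 ± 0.22 in the Sox2 line and from 1.19 ± 0.37 to 0.58 ± 0.12 in the Nr2f1 line, again without overlap. Both ratios were chosen after their values had been seen and are given as descriptions without a test.

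**Figure D4:**
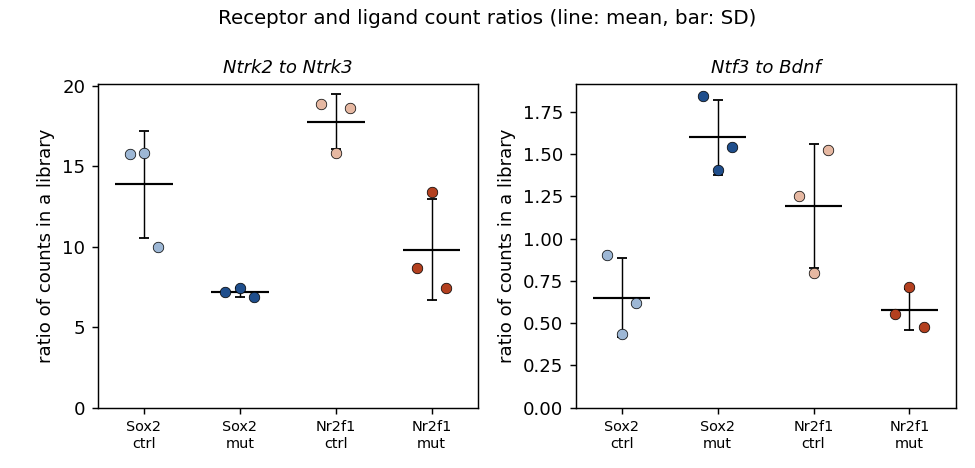
Ratio of Ntrk2 to Ntrk3 counts (left) and of Ntf3 to Bdnf counts (right) in each library, on linear axes from 0, with the mean as a line and the SD as a bar for the 4 groups. The receptor ratio is lower in both mutants than in their controls, whereas the ligand ratio is higher in Sox2 mutants (1.60) and lower in Nr2f1 mutants (0.58).

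Among the genes whose deviations from the line's controls were most like those of a member over the 12 libraries (Pearson's r among 15988 genes, as a description of libraries that share their group and dissection), Cdh24 (0.95) and Mafk (0.95) came first for Bdnf, Cit (0.97) and Palm3 (0.96) for Ntf3, Zhx1 (0.98) and Chrna4 (0.98) for Ntrk2, Hmha1 (0.99) and Ptgis (0.98) for Ntrk3, and Slfn5 (0.98) and Lamb1 (0.98) for Ngfr. Among the members, the closest pair was Ngfr and Ntrk3 (r = 0.85).

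Among genes that sort, cleave and release proneurotrophins, some passed in each mutant. In the Sox2 mutants 5 of 16 tested passed, against 8.08% of all tested genes. The 5 comprised 2 higher and 3 lower, and the list median was -0.14. Sorcs1 (-0.65, adjusted p = 0.00175) and Sorcs2 (-0.55, adjusted p = 0.00318), sortilin-type receptors of which SorCS2 pairs with p75, fell, as did the proprotein convertase gene Pcsk5 (-0.87, adjusted p = 0.000819). Sorl1 (0.55, adjusted p = 0.00890), which sorts TrkB, and Cadps2 (0.82, adjusted p = 0.000557), known for BDNF release, rose. In the Nr2f1 mutants 3 of 16 passed, against 2.54% of all tested genes. Sorl1 was higher (0.83, adjusted p = 0.000551), and Sorcs1 (-0.58, adjusted p = 0.00526) and Cadps (-0.34, adjusted p = 0.00625) were lower. Pcsk5 (difference -0.96, adjusted p = 0.000667) and Sorcs2 (-0.64, adjusted p = 0.00505) differed between the mutants in the interaction test.

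Of 16 co-receptors and adaptors of p75, 2 passed in each mutant, and they were Lingo1 and Irak1 both times. By comparison, edgeR called 8.08% (Sox2) and 2.54% (Nr2f1) of all tested genes. Lingo1, a co-receptor of p75 and the Nogo receptor, fell by 0.62 and 0.42 on the log2 scale (adjusted p = 0.00117 and 0.00729). Irak1, a kinase bound to p75 through its adaptors, stood higher by 0.65 and 0.77 (adjusted p = 0.000991 and 0.000315). Of 45 Trk adaptor and signalling genes 2 passed in the Sox2 mutants, Plcg2 (0.90, adjusted p = 0.00670) and the phosphatase gene Ptprk (0.56, adjusted p = 0.00180), both higher, and 43 did not, whereas DESeq2 called 8, of which 2 were higher and 6 lower. Microglial markers, for a cell type that also expresses Plcg2, rose for 9 of 10 genes in the Sox2 mutants (list median 1.28, summed level 146 to 162 CPM in controls and 307 to 358 CPM in mutants), and their part in this result was not tested. Of the same 45, 0 passed in the Nr2f1 mutants in edgeR, with 9 at an unadjusted p below 0.05 and 3 called by DESeq2. Of 15 genes for Trk endocytosis and partners, 1 passed in the Sox2 mutants and 14 did not. It was Islr2, a Trk-binding membrane protein of axon growth, which rose (0.99, edgeR adjusted p = 0.00560). In the Nr2f1 mutants 0 of the 15 passed (edgeR, with 4 at an unadjusted p below 0.05 and 1 called by DESeq2).

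Of 16 regulators of Bdnf transcription, 1 passed in the Sox2 mutants and 3 in the Nr2f1 mutants, and 15 and 13 did not. Over all tested genes 8.08% and 2.54% passed. The calcium-dependent kinase gene Camk4 fell in both, by 1.38 on the log2 scale in the Sox2 mutants (adjusted p = 3.88e-05) and by 0.58 in the Nr2f1 mutants (adjusted p = 0.00314), and these changes differed (adjusted p = 0.00401). In the Nr2f1 mutants Mef2c, a transcription factor of activity-dependent genes, fell by 0.98 (adjusted p = 0.000438) and Camk2a rose (0.39, adjusted p = 0.00374), while in the Sox2 mutants Mef2c stood at -0.40 (adjusted p = 0.0948). Their difference for Mef2c did not pass (adjusted p = 0.153).

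Of 18 tested genes known to respond to BDNF, 3 passed in the Sox2 mutants and 3 in the Nr2f1 mutants, with list medians of -0.01 and -0.02. Over all tested genes 8.08% and 2.54% passed. Vgf, a secreted neuropeptide precursor, fell by 1.88 and 1.61 on the log2 scale (adjusted p = 7.59e-05 and 0.00200). In the Sox2 mutants Dusp5, an ERK phosphatase gene, fell by 1.34 (adjusted p = 0.00150) and Arc, an immediate early gene of synapses, rose (1.57, adjusted p = 0.00365) from 0.98 to 2.91 CPM. In the Nr2f1 mutants Nptx1 (0.76, adjusted p = 0.00125) and the granin gene Scg2 (0.64, adjusted p = 0.000148) rose.

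Among ligands and receptors of the GDNF and CNTF families, another group of neurotrophic factors, 3 of 19 passed in the Sox2 mutants and 0 of 18 in the Nr2f1 mutants (edgeR, with 6 at an unadjusted p below 0.05 and 4 called by DESeq2). The edgeR shares over all tested genes were 8.08% and 2.54%. The GDNF receptor genes Gfra1 (-0.86, adjusted p = 0.00167) and Ret (-0.84, adjusted p = 0.000514) fell in the Sox2 mutants, and Lifr, the LIF receptor gene, rose (0.41, adjusted p = 0.00444). After Nr2f1 deletion Gfra1 stood at 0.46 (adjusted p = 0.0205) and Ret at -0.15 (adjusted p = 0.272). Gfra1 (difference -1.31, adjusted p = 0.000560) and Ret (-0.68, adjusted p = 0.00656) differed between the mutants.

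**Figure D5:**
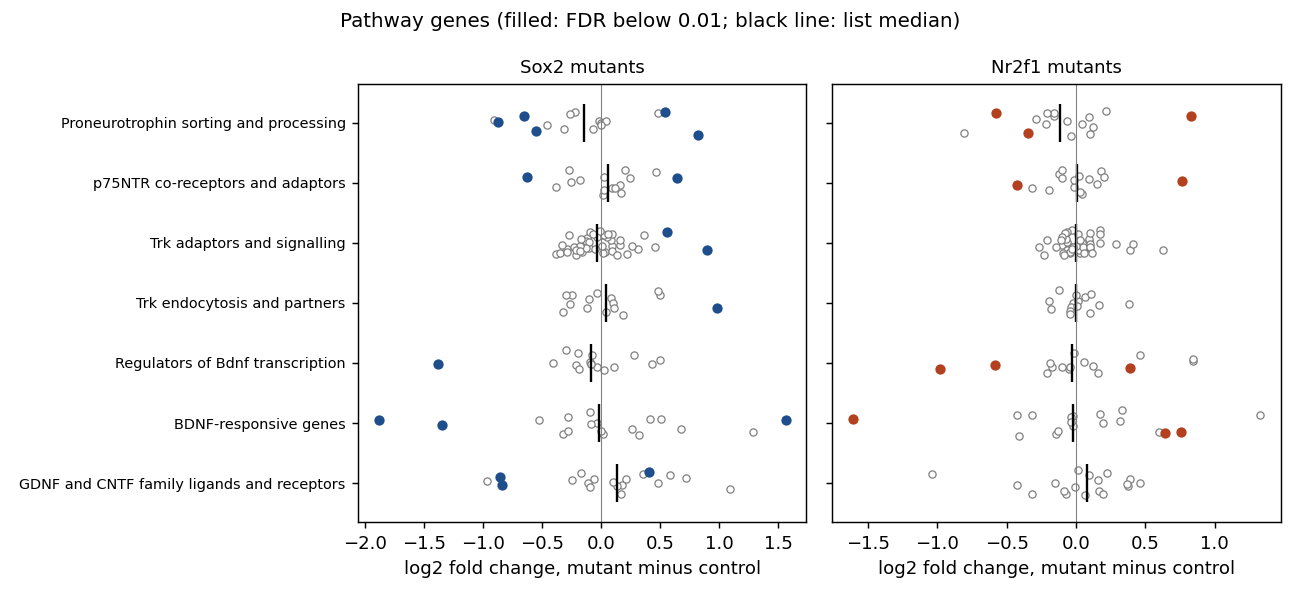
Log2 fold change of each tested gene (point) of 7 neurotrophic pathway lists in Sox2 mutants (left) and Nr2f1 mutants (right), filled where the adjusted p was below 0.01, with the list median as a black line. The list medians lie between -0.14 and 0.14, and Vgf is the lowest filled point in both lines (-1.88 and -1.61).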

How the data were processed

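Bulk RNA-seq was made from pools of dissected dLGN. The authors aligned reads with STAR to a RefSeq mouse transcriptome (mm10 in the submitters' processing notes) and deposited RSEM estimated counts (expected counts), 1 table per line; 7.77% of values were not whole and were rounded. Software versions, and whether strand was used in counting, are not given in the sources used here, so overlapping antisense reads at Bdnf, Ntrk2 and Ntrk3 cannot be told apart.

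In edgeR 4.0.16 (R 4.3.3), each line was filtered by filterByExpr (minimum count 10, total 15), scaled by TMM and tested by quasi-likelihood F-test, with Benjamini-Hochberg adjustment over all genes tested and a threshold of 0.01. A fit over 12 libraries tested the difference between the mutants. SE is the log2 fold change divided by the root of F. An exact permutation test of 3 against 3 libraries cannot go below p = 0.1 (two-sided). Nothing states that pools of a group came from separate litters, so p-values measure the spread between these pools. Lengths are of GENCODE M21 transcripts linked to RefSeq mRNAs, since RefSeq lengths were not used here. Promoters are from RefSeq.

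The genes and lists were chosen with earlier results of these data known. Named were the 6 genes, up to 4 genes per list and line by smallest p among those called, and the 2 most similar genes of each member. The scripts were tested on simulated data. Alternatives were other filters, normalizations, DESeq2 1.42.0, a threshold of 0.05, covariates, 1 library left out, and a replicate block. The fibroblast and pallial covariates were chosen after seeing the data.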

Additional observations from a re-analysis of the deposited data

How the results depend on the processing

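The number of genes called at 0.01 was 1261 in Sox2 mutants, 396 in Nr2f1 mutants and 231 for their difference. It was 2468, 1112 and 544 with DESeq2 and 3095, 1154 and 538 at a threshold of 0.05. One fit over 12 libraries gave 2075 in Sox2 mutants. The male-specific covariate gave 55 in Nr2f1 mutants and 93 for the difference, and the fibroblast covariate 80 and 356. With 1 library left out the counts ran from 494 (without control 2) to 2161 (without control 3) in Sox2 mutants, with 554 without control 1 and 495 without mutant 4. They ran from 133 (without mutant A) to 868 (without mutant B) in Nr2f1 mutants, with 144, 169, 179 and 226 without control B, D, E and mutant C. For the difference they ran from 133 to 308, moving by over 1.5 times without Sox2 control 2 (133), Sox2 mutant 4 (148), Nr2f1 control D (139) and Nr2f1 mutant A (135). Male-specific genes were at 0 in Nr2f1 mutant A, and their list median log2 fold change in the Nr2f1 line was -1.37.

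In Sox2 mutants Bdnf was -0.037 with the male covariate, -0.16 with the pallial covariate and -0.032 to 0.12 with 1 library left out. Ntf3 was 1.44 (adjusted p = 0.0210) with the male covariate and 0.85 (0.0589) with the pallial one, and 1.16 to 1.63 with 1 library left out. Ngfr was 1.21 (0.00184) with the pallial covariate and 0.48 to 1.02 with 1 library left out. Ntrk2 ran from -0.32 to -0.14 and Ntrk3 from 0.62 to 0.82 with 1 library left out. In Nr2f1 mutants DESeq2 gave 1.05 (0.00804) for Bdnf and 0.45 (0.00643) for Ntrk3. Ntrk2 was -0.43 (0.0747) with the male and -0.34 (0.130) with the fibroblast covariate, and -0.52 to -0.41 with 1 library left out. Ntrk3 ran from 0.32 to 0.62 with 1 library left out, and Ngfr was -0.058 with the fibroblast covariate. The Ngfr difference between the mutants was 0.25, 0.14 and 0.38 with the male, fibroblast and pallial covariates, and -0.28 to 0.24 with 1 library left out. That range was -1.38 to -0.76 for Bdnf, 1.05 to 1.51 for Ntf3, 0.14 to 0.32 for Ntrk2 and 0.10 to 0.39 for Ntrk3, and the pallial covariate gave 0.75 for Ntf3. These causes were not tested. No member changed its direction or call under the other filters, upper quartile or RLE normalization, a threshold of 0.05 or the joint fit.

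Pathway calls in Sox2 mutants went from 5 to 8 with DESeq2 and 9 at 0.05 for sorting and processing, from 2 to 4 and 5 for p75 partners, from 2 to 8 and 10 for Trk adaptors, from 1 to 3 and 4 for endocytosis, from 1 to 2 and 3 for Bdnf regulators and from 3 to 6 and 7 for the GDNF and CNTF families. In Nr2f1 mutants they went from 3 to 5 and 5 for sorting and processing, from 0 to 3 and 3 for Trk adaptors, from 0 to 4 and 4 for the GDNF and CNTF families, and with DESeq2 from 0 to 1 for endocytosis and 3 to 5 for Bdnf regulators.

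A replicate block on the numbers in the Sox2 column names, where mutants and controls share 2, gave 1611 calls and moved Ngfr to 0.58 (adjusted p = 0.000622), changing no other call among the 6 genes. Same-numbered libraries correlated at 0.23 and 0.22, and control 2 at 0.27 with mutant 1, so the numbers were not taken to pair the samples. The Nr2f1 columns share 1 letter, and no block could be fitted there. The low counts of Ntf5, Bdnf and Ntf3 limit what these libraries can resolve.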
